A study of Bos taurus with 6 samples.

Results

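ISG15, MX1, MX2 and IFI6 are genes that cells transcribe when they respond to interferon. They were followed here in bovine marrow cells cultured in a hydrogel with and without transforming growth factor beta 3 (TGF-beta3), a growth factor used to drive such cells towards cartilage. The 4 genes were chosen by their higher signal late in culture without TGF-beta3. For these genes the day 42 level without TGF-beta3 and every difference that contains it are therefore given as a description, with no test. Each gene had 1 probe set with that single symbol, which makes 4 of 24016 probe sets, or 4 of 9155 genes named on the array. Their Entrez Gene identifiers are 281871 for ISG15, 280872 for MX1, 280873 for MX2 and 512913 for IFI6.

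Interferons are secreted proteins that bind receptors on the cell surface. The receptors act through JAK kinases, STAT proteins and the factor IRF9 to switch on a large set of genes, many of which restrict viruses. ISG15 is a ubiquitin-like protein that is attached to other proteins and is also secreted. MX1 and MX2 are dynamin-like GTPases that trap viral components, and their genes are neighbours on the same bovine chromosome with no annotated gene between them. IFI6 is a small membrane protein that, in human cells, limits apoptosis and the replication of some viruses.

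The cells were mesenchymal stem cells (MSCs) from bovine bone marrow, encapsulated in agarose and kept in a defined medium. The groups were cells with TGF-beta3 at day 21, cells with TGF-beta3 at day 42, cells with TGF-beta3 that were pre-cultured for 21 days and were then under dynamic compression for the next 21, up to day 42, and cells without TGF-beta3 at day 3 (labelled undifferentiated), day 21 and day 42. Each of the 6 groups was measured on 1 Affymetrix bovine array, so no value has a replicate or an error, and precision is limited by how few arrays there are. The sources used here do not give the number of donor animals.

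The values are linear signal intensities per probe set. A signal of 15.1, the 40th percentile of all values, served as the floor. A lower value was treated as not measured, and a fold change against it is a lower bound. Between 54.9% and 65.3% of probe sets lay above the floor on each array. Hybridisation spikes, foreign transcripts added to each sample, had median signals of 7304 and 5823 on the unloaded and loaded day 42 arrays with TGF-beta3, and between 2618 and 3727 on the other arrays. Of the 9 marrow stromal cell markers measured, 8 were above the floor on each array without TGF-beta3 and 6 on each array with it. The leptin receptor LEPR was under the floor on every array.

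The ISG15 signal was 12.6 with TGF-beta3 at day 21, 12.5 with it at day 42 and 5.64 after loading, against 142 at day 3, 2.50 at day 21 and 317 at day 42 without TGF-beta3. ISG15 was therefore above the floor on 2 arrays, the earliest and the latest without TGF-beta3. MX1 had a signal of 4.23 with TGF-beta3 at day 21, 5.36 with it at day 42 and 1.32 after loading, against 52.1 at day 3, 4.40 at day 21 and 122 at day 42 without it. It was above the floor on the same 2 arrays as ISG15.

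IFI6 was above the floor on 5 arrays. Its signal was 38.1 with TGF-beta3 at day 21, 53.2 with it at day 42 and 1.99 after loading, against 92.2 at day 3, 36.0 at day 21 and 178 at day 42 without TGF-beta3. The day 3 and day 42 arrays without TGF-beta3 again held the 2 highest values, and the array of the loaded construct held the only one under the floor. MX2 had a signal of 3.09 with TGF-beta3 at day 21, 2.59 with it at day 42 and 1.04 after loading, against 10.6 at day 3, 8.09 at day 21 and 26.0 at day 42 without it. It was above the floor only on the day 42 array without TGF-beta3, and there it was 1.72 times the floor.

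**Figure D1:**
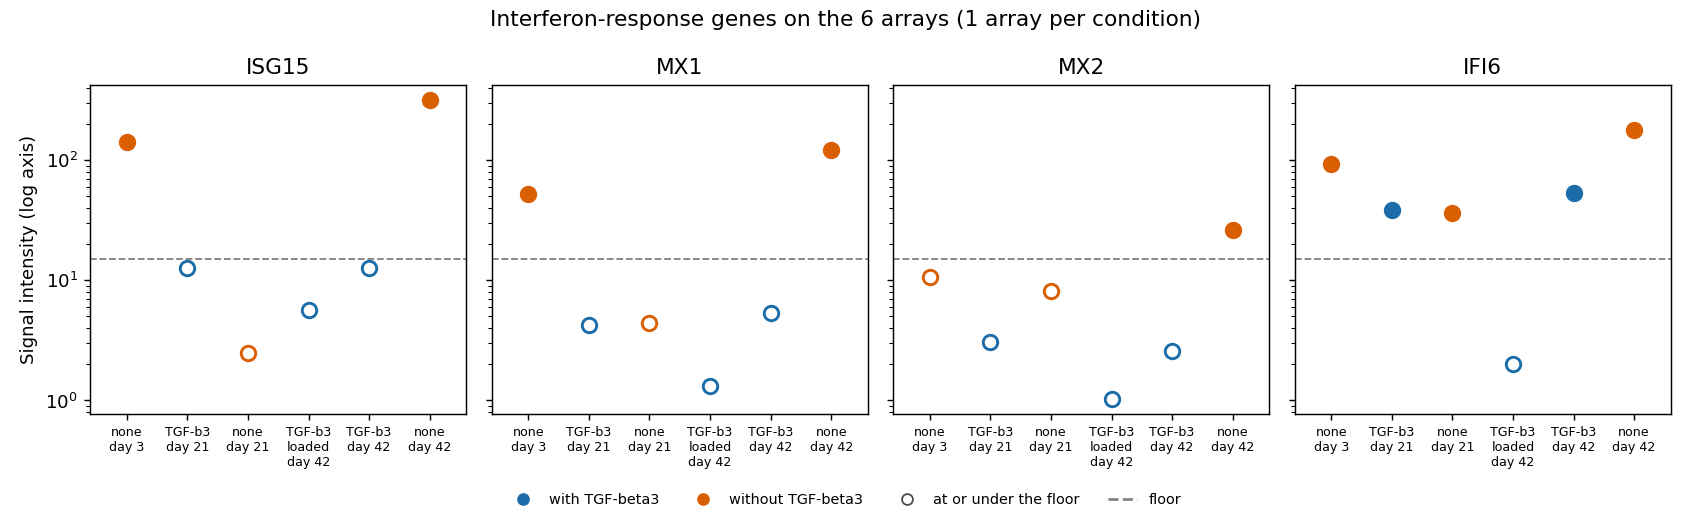
Signal intensity (log axis) of ISG15, MX1, MX2 and IFI6 on the 6 arrays, 1 point per array, with TGF-beta3 in blue and without it in orange. The dashed line is the floor at 15.1 and open points lie under it. The day 42 array without TGF-beta3 holds the highest point of each gene, and for ISG15, MX1 and IFI6 the day 3 array holds the next.

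Without TGF-beta3 the signals of ISG15, MX1 and IFI6 were also high at the start. At day 21, compared with day 3, ISG15 was at least 9.38-fold lower, the 7th largest drop among 15054 probe sets compared. MX1 was at least 3.44-fold lower and IFI6 2.56-fold lower, while MX2 was under the floor on both days. Thus 3 of the 3 compared were at least 2-fold lower at day 21, where 5.2% of all probe sets were lower and 7.18% higher. ISG15 and MX1 were under the floor at day 21. They entered only through the day 3 array and could only come out lower, so the count is a description. That split, 1081 higher and 783 lower, became 3207 and 335 with arrays scaled to the spikes, where IFI6 was short of 2-fold (log2 -0.85). This comparison shares its day 21 array with the one that chose the genes, and it was measured once.

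At day 42, compared with day 21, ISG15 was at least 20.9-fold higher, the largest increase among 14737 probe sets. MX1 was at least 8.03-fold higher and ranked 5th, IFI6 was 4.95-fold higher and ranked 20th, and MX2 was at least 1.72-fold higher. Hence 3 of the 4 genes were at least 2-fold higher and 0 lower, against 3.29% and 10.1% of all probe sets. This is the contrast the choice used, and ISG15, MX1 and MX2 entered it only through the day 42 array. That background was 485 probe sets higher and 1485 lower, and became 1368 and 850 with arrays centred on their medians, 798 and 923 under quantile normalization and 424 and 2477 with arrays scaled to the spikes.

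Set against day 3, the day 42 signal was 2.23-fold higher for ISG15, 2.33-fold for MX1 and 1.93-fold for IFI6, and at least 1.72-fold for MX2. Of the 4, 2 passed 2-fold, where 8.72% of all probe sets were higher and 13.7% lower. With the arrays centred on their medians, or scaled to the spikes, all 4 passed it.

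**Figure D2:**
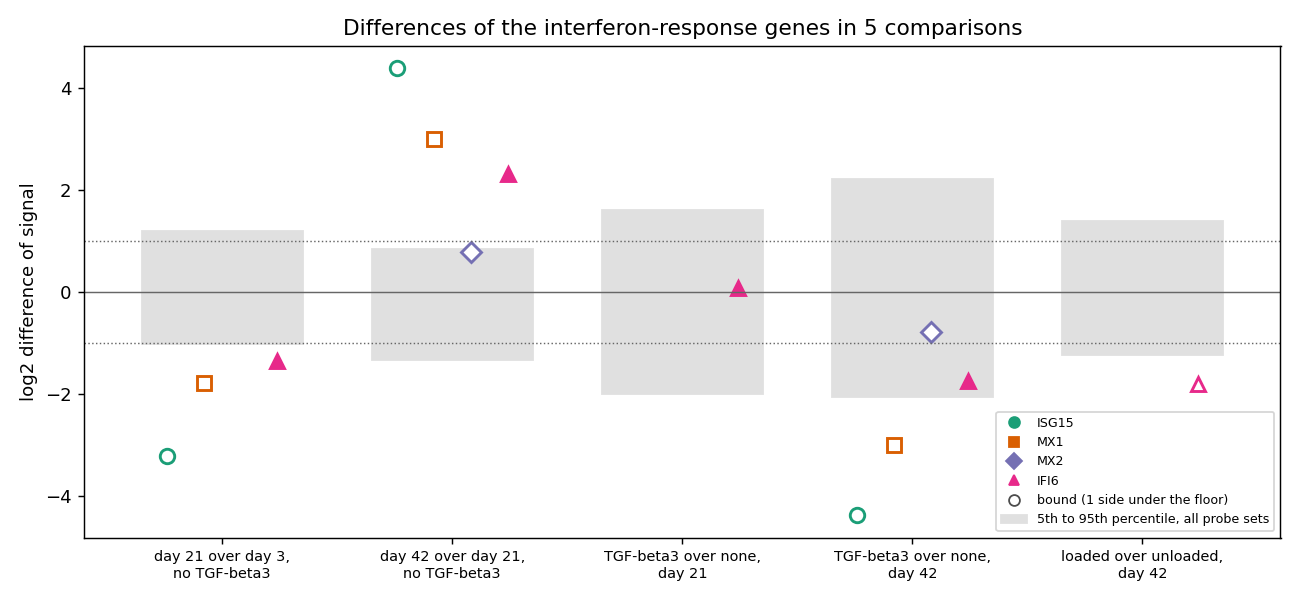
Log2 differences of signal of ISG15, MX1, MX2 and IFI6 in 5 comparisons. Open symbols are bounds with 1 side under the floor, a gene under the floor on both sides has no symbol, grey bars span the 5th to 95th percentile of all probe sets and dotted lines mark 2-fold. ISG15 lies at -3.23, 4.39 and -4.39 in the 3 comparisons it enters, outside the grey bar each time.

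At day 21 IFI6 was the only one of the 4 above the floor. It was 1.06-fold higher with TGF-beta3, a direction that turned with spike scaling (log2 -0.21), and 0 of the 1 compared passed 2-fold in either direction (13.3% of all probe sets were higher and 15.7% lower). That split, 2051 higher and 2429 lower, became 1580 and 3812 with spike scaling. ISG15, MX1 and MX2 were under the floor both with and without TGF-beta3, so no difference was detectable for them at this signal.

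At day 42 the signals were lower with TGF-beta3. ISG15 was at least 20.9-fold lower (12.5 with TGF-beta3 and 317 without), MX1 at least 8.03-fold lower (5.36 and 122), IFI6 3.35-fold lower (53.2 and 178) and MX2 at least 1.72-fold lower (2.59 and 26.0). Of the 4, 3 were at least 2-fold lower, and 0 higher, where 16.2% of all probe sets were lower and 24.5% higher. That split, 4127 higher and 2734 lower, became 2472 and 4820 under median centring, 3389 and 3263 under quantile normalization and 1009 and 7945 with spike scaling. The folds of ISG15, MX1 and MX2 equal those of day 42 over day 21, since in both the day 42 array without TGF-beta3 stands against the floor. These genes entered only through that array and could only come out lower with TGF-beta3. The spikes were brighter by log2 1.39 with TGF-beta3 in this pair, opposite to the 4 genes.

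The arrays with TGF-beta3 took no part in the choice of the genes. Between days 21 and 42 with TGF-beta3, IFI6 was 1.40-fold higher at day 42, which also turned with spike scaling (log2 -0.70), and 0 of the 1 compared passed 2-fold (18.1% of all probe sets were higher and 14.1% lower). ISG15, MX1 and MX2 stayed under the floor. After 21 days of dynamic compression IFI6 had a signal of 1.99 in the loaded construct, against 53.2 in the unloaded one, so it was at least 3.51-fold lower. That 1 of 1 compared was lower, as were 8.2% of all probe sets, while 10.2% were higher, and IFI6 ranked 215th of 17448 in that direction. The split over all probe sets, 1787 higher and 1430 lower, became 2392 and 485 with spike scaling. Against day 21 with TGF-beta3 the loaded construct was at least 2.52-fold lower for IFI6 (9.97% of all probe sets were lower and 15.1% higher). With the floor at the 60th percentile IFI6 was under it on all 3 arrays with TGF-beta3 and neither difference could be computed.

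Other genes of the interferon pathway were read from 7 lists of 137 symbols, of which 83 were measured and are distinct from the 4 genes. Ligands gave little signal. IFNB1, the interferon beta that many cell types secrete, IFNG and the interferon alpha IFNAC were under the floor on every array. The trophoblast interferon IFNT2 had signals of 22.2 and 15.8 on the unloaded and loaded day 42 arrays with TGF-beta3 and was under the floor on the 4 others. The chemokines CXCL10, CXCL11 and CCL8 and the tryptophan-degrading enzyme IDO1, which interferon also induces, were under the floor on every array. The chemokine CCL5 had a signal of 18.4 at day 3 without TGF-beta3, an array on which ISG15 and MX1 were high, and was under the floor on the others.

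The receptors and the signalling genes did not follow the 4 genes as a group. The interferon gamma receptor chain IFNGR2 was 1.43-fold higher and the type I receptor chain IFNAR1 1.21-fold lower at day 42 than at day 21 without TGF-beta3. IFNAR2, the other type I chain, was 1.08-fold lower and IL10RB, a chain shared with the interleukin 10 receptor, 2.43-fold lower. IFNAR1 was higher with TGF-beta3 on both days, by 2.85-fold at day 21 and 3.90-fold at day 42. Among 11 signalling genes compared, IRF9, the partner of the STAT proteins, was the only one at least 2-fold higher at day 42 than at day 21 without TGF-beta3. Its signal was 21.9 with TGF-beta3 at day 21, 12.3 with it at day 42 and 18.9 after loading, against 48.2 at day 3, 19.1 at day 21 and 45.3 at day 42 without it. IRF9 was thus high on the same 2 arrays as ISG15 and MX1. USP18, the protease that removes ISG15 from proteins, was 1.22-fold higher at day 42 than at day 21. A second USP18 probe set had signals of 16.5, 2.97 and 19.1 at days 3, 21 and 42 without TGF-beta3. With TGF-beta3 over without it at day 42 the 2 disagreed, at log2 -1.06 for the one counted and 1.23 for the second. The remaining USP18 probe sets were under the floor on every array. The regulators IRF3 and IRF2 were 1.94-fold and 1.96-fold lower at day 42 than at day 21 without TGF-beta3. With TGF-beta3 over without it at day 42, 6 of 13 signalling genes were at least 2-fold higher and 2 lower. Over 7566 genes 25.5% were higher and 15.7% lower. IRF3 had signals of 197 with TGF-beta3 and 49.2 without it, and IRF7, named after its values were seen, 67.4 and 4.86. With spike scaling 2 genes over all 7 lists were higher in this pair.

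Of 26 interferon-stimulated effectors compared at day 42 against day 21 without TGF-beta3, 7 were at least 2-fold higher and 0 lower, with a median log2 difference of 0.63, whereas 3.83% of 6684 genes were higher and 5.49% lower, with a median of 0.06. They were IFITM1, OAS1X, PARP9, GBP1, PARP12, SAMD9 and IFITM3 (listed as LOC282255). Of these, GBP1, PARP12, SAMD9 and IFITM3 are given here after their values were seen. The contrast is the one that chose the 4 genes, so these counts are a description and no separate support. OAS1X was under the floor at day 21 and its difference is a bound. With the floor at the 60th percentile 3 effectors were higher and 0 lower. Under median centring 13 were higher and 0 lower, where 1368 of all probe sets were higher and 850 lower. OAS1X belongs to the family that makes the signal for RNA decay. It was under the floor on the 3 arrays with TGF-beta3, with signals no higher than 3.38, against 38.0, 11.0 and 47.0 at days 3, 21 and 42 without it. The membrane protein IFITM1, which blocks viral entry, was 3.67-fold higher at day 42 than at day 21 without TGF-beta3, but at 131 with TGF-beta3 and 112 without it at day 42 it did not share the difference of ISG15 there. IFITM1 has a second probe set that was under the floor on every array. TRIM5, a restriction factor, was 1.03-fold higher and PARP14, an ADP-ribosyltransferase, 1.23-fold lower at day 42 than at day 21. Between days 3 and 21, 7 of 27 effectors were lower and 0 higher (4.72% and 7.03% of all genes).

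The inducible proteasome subunits PSMB8 and PSMB9, which cut proteins for display on class I molecules, had the same 2 high arrays. PSMB8 signals were 33.8, 19.0 and 23.1 with TGF-beta3 at day 21, at day 42 and after loading, against 146, 40.9 and 140 at days 3, 21 and 42 without it. PSMB9 was 3.71-fold higher at day 42 than at day 21 without TGF-beta3 and at least 3.74-fold lower with TGF-beta3 at day 42. These were the 2 of 11 class I genes at least 2-fold higher at day 42, and the peptide trimmer ERAP1 was 2.01-fold lower. The peptide transporter TAP2 was 1.31-fold lower. Of the enzymes that attach ISG15, the activating enzyme UBA7 was 1.96-fold and the conjugating enzyme UBE2L6 1.15-fold higher at day 42. HERC6, a ligase of that step in mice, was under the floor on every array. HERC5, from the same list and named after its values were seen, had a signal of 19.0 with TGF-beta3 at day 42. It was under the floor on the other arrays.

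**Figure D3:**
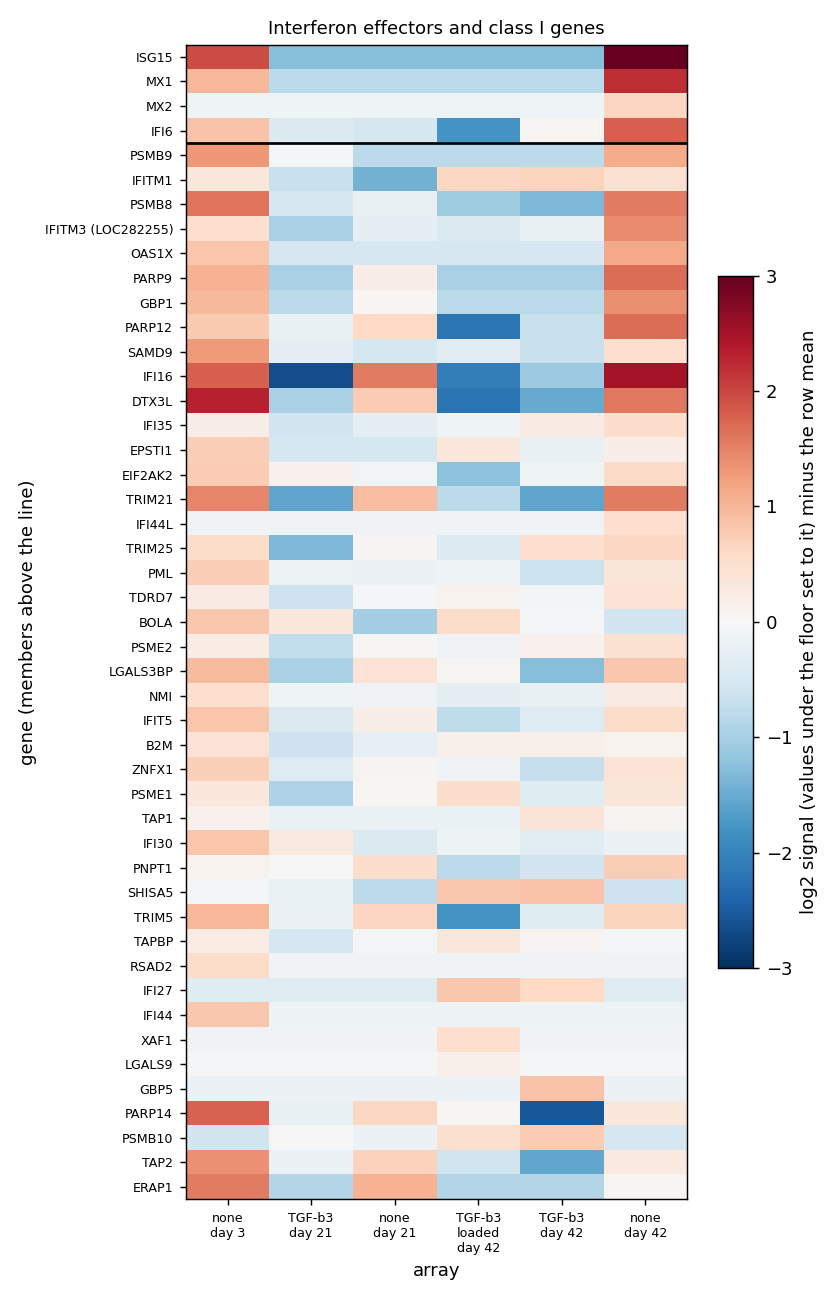
Log2 signal minus the row mean on the 6 arrays (signals under the floor are drawn at the floor) for the 4 genes (above the line) and the interferon effectors and class I genes above the floor on at least 1 array, ordered by their difference between days 42 and 21 without TGF-beta3. Colour is capped at 3 in either direction. The day 3 and day 42 columns without TGF-beta3 are red for ISG15, MX1 and IFI6 and for most rows just under the line, while rows such as IFITM1 are also red with TGF-beta3 at day 42.

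With TGF-beta3 at day 42, 14 of 28 effectors were at least 2-fold lower than without it and 2 were higher (SHISA5 and GBP5, named after their values were seen), where 15.7% of 7566 genes were lower and 25.5% higher. GBP5 was higher on 1 of its 4 probe sets, a bound at log2 1.02, while 2 others had bounds of -0.38 and -0.45 and the last was under the floor on both arrays. The median log2 difference of the effectors was -1.01, against 0.22 over all genes. With spike scaling 25 effectors were lower and 0 higher, but 7945 of all probe sets were then lower and 1009 higher. When the 60th percentile was the floor, 9 effectors were lower and 0 higher. The share over all genes was not computed for that floor. At day 21, 6 of 23 effectors were lower with TGF-beta3 and 0 higher (14% and 14.3% of 6938 genes), a pair of arrays on which ISG15 and MX1 were not measurable. Over all 7 lists 21 of 65 genes were lower and 11 higher at day 42. These comparisons share the day 42 array without TGF-beta3 with the one that chose the 4 genes.

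Both days together gave 2 arrays on each side, which allowed a test for the pathway genes, with the 4 genes left out. The test includes the day 42 array without TGF-beta3, by which the 4 genes were chosen. It is therefore not independent of that choice. In limma with a term for day, 5 of the 57 pathway genes tested (8.77%) fell with TGF-beta3 at an adjusted p under 0.05, where 7.7% of 6835 genes fell, so the share over the 7 lists was near the background. The falls were 4 of 24 effectors and 1 of 3 ISG15 conjugation genes, and 0 fell among 4 ligands and receptors, 12 signalling genes, 4 sensors and adaptors and 11 class I genes. None of the 57 rose in the main fit (7.11% of all genes did). At an unadjusted p under 0.05 by limma, 3 were higher and 19 lower, where 1028 of 6835 genes were higher and 908 lower. Of the 5 that fell, the ubiquitin ligase DTX3L had signals of 80.8 and 55.3 with TGF-beta3 at days 21 and 42, against 267 and 472 without it. Its mean log2 difference was -2.41 ± 0.52 (SE, adjusted p = 0.00054 by limma). UBE2L6 had signals of 64.7 and 142 with TGF-beta3, against 337 and 386 without it, and a mean log2 difference of -1.91 ± 0.47 (SE, adjusted p = 0.0030 by limma). IFI16, a sensor of DNA, had signals of 0.654 and 44.7 with TGF-beta3, against 280.1 and 537 without it. Its first value entered the fit at the floor, so its fitted difference depends on where the floor lies. TRIM21, an antibody receptor inside cells, had signals of 12.5 and 13.7 with TGF-beta3, against 85.5 and 134 without it. PARP9, the partner of DTX3L, had 4.74 and 6.27 with TGF-beta3, against 34.1 and 95.2 without it. TRIM21 and PARP9 were tested only because both arrays without TGF-beta3 were above the floor, and both their values with TGF-beta3 were set to it, so their calls are counted here but give no support.

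With 1 residual degree of freedom against 49.8 from the prior, these p-values use a spread borrowed almost wholly from other probe sets. Without the day term 1 pathway gene fell (2.68% of all genes). It was IFI16, so DTX3L and UBE2L6 did not pass there. Without the variance trend 3 fell (4.29%), and UBE2L6 was not among them. The median log2 difference of the pathway genes was -0.49 in the main fit (0.13 over all genes). When the day term was dropped with 1 array, which leaves 1 array on a side, this median moved. It was -0.21 without the day 42 array lacking TGF-beta3 (0.15 over all genes) and -0.67 without the day 21 array lacking it (0.13). Leaving out the TGF-beta3 array of day 42 gave -0.61 (0.05), and leaving out that of day 21 gave -0.40 (0.11).

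**Figure D4:**
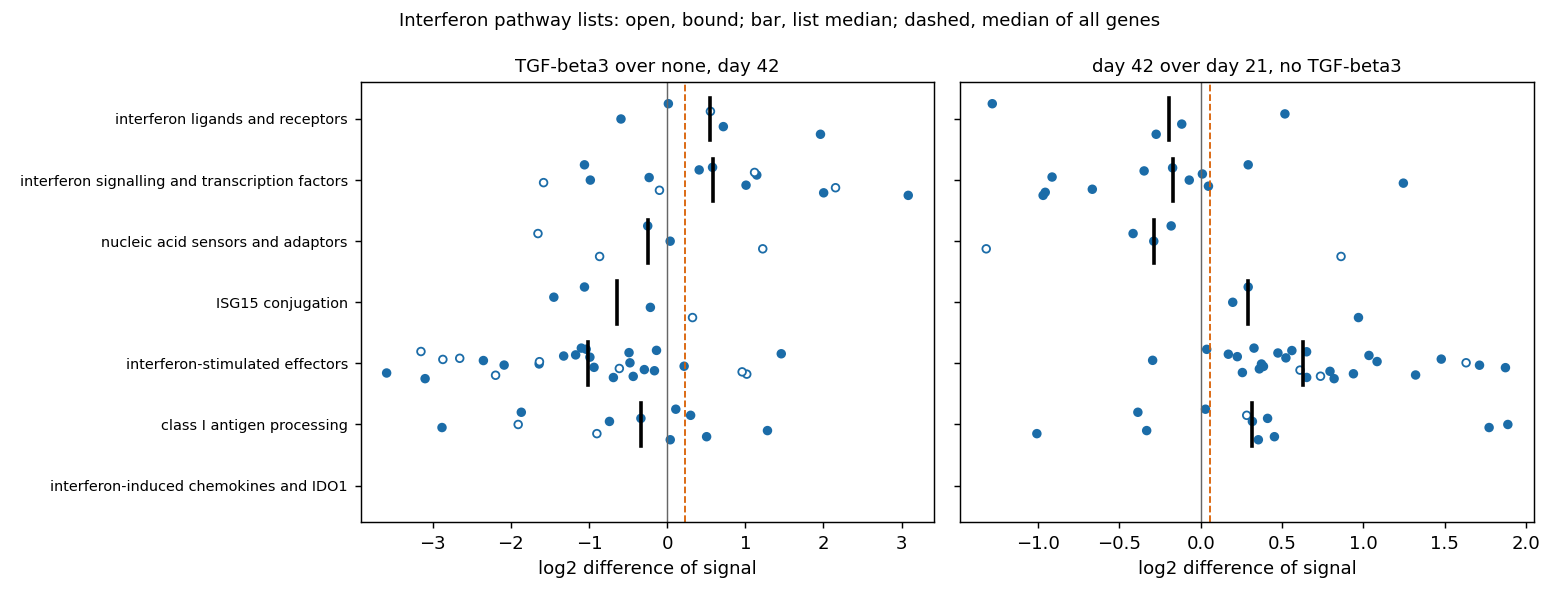
Log2 difference of signal of each pathway gene with TGF-beta3 over without it at day 42 (left) and at day 42 over day 21 without TGF-beta3 (right), 1 row per list. Open points are bounds, black bars list medians and the dashed line the median of all genes. The effector median is at -1.01 on the left and 0.63 on the right, and the chemokine list has no point because all its members were under the floor on these arrays.

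Of 26 effectors compared under loading, 4 were at least 2-fold lower in the loaded than in the unloaded construct, as IFI6 was, and 2 were higher (7.41% and 8.41% of 7703 genes). Nucleic acid sensors and adaptors start the interferon response. Of 18 listed symbols 7 were measured, and among these 5 were higher and 0 lower with loading. DHX58 was at least 3.01-fold higher, TLR3 at least 3.12-fold, and MAVS 2.02-fold, and TLR9, a DNA receptor named after its values were seen, at least 2.68-fold. A second TLR3 probe set, at 23.1 in the loaded and 9.76 in the unloaded construct, was at least 1.53-fold higher. The remaining TLR3 probe set was under the floor on both arrays. The probe sets of TRAF3 disagreed, as the one counted was 3.05-fold higher and a second, at 7.50 in the loaded and 50.2 in the unloaded construct, was at least 3.31-fold lower. With the floor at the 60th percentile 1 of all the pathway genes was higher. At day 42 against day 21 without TGF-beta3, where ISG15 was at least 20.9-fold higher, DHX58 was at least 1.82-fold higher, TRAF3 1.13-fold lower, TLR3 1.33-fold lower and MAVS at least 2.50-fold lower.

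Genes whose profile over the 6 arrays was most like the mean profile of the 4 genes were ranked by Pearson correlation of log2 signal, among 2042 genes with a log2 range of at least 2. The points share the same 6 arrays and the floor, and the values describe these arrays only. Among the 10 most alike outside the 4, 5 were in the pathway lists, as were 22 (1.08%) of the 2042 genes ranked. The ranking is against genes chosen for their day 42 level, so it is no support for that level. The other named genes were RASGEF1B, a guanine nucleotide exchange factor (r = 0.94), TMLHE, an enzyme of carnitine synthesis (r = 0.91), NUDCD1 (r = 0.90) and TSPAN15, a tetraspanin (r = 0.88). GBP1, an interferon-induced GTPase (r = 0.93), PARP9 (r = 0.92), PSMB8 (r = 0.90) and PSMB9 (r = 0.90) were the pathway genes with a name, and 2 of the 10 had placeholder symbols. Among the 4 genes themselves r ran between 0.72, for MX2 and IFI6, and 0.99, for ISG15 and MX1.

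Markers of other cells moved with some of these values. The summed signal of 11 leukocyte and macrophage markers was 87.2 with TGF-beta3 at day 21, 235 with it at day 42 and 168 after loading, against 319 at day 3, 522 at day 21 and 656 at day 42 without it. ISG15 and MX1 were under the floor at day 21 without TGF-beta3, where that sum was higher than at day 3. Of the 11, 7 were above the floor at day 3, 8 at day 21 and 8 at day 42 without TGF-beta3, against 2 with TGF-beta3 at day 21, 6 with it at day 42 and 4 after loading. Without TGF-beta3 at days 3, 21 and 42, AIF1 had signals of 33.1, 123 and 148, CD53 of 31.9, 113 and 231 and CD68 of 11.3, 56.3 and 79.6, all higher at the later days. CD14, a receptor of monocytes, had 83.9, 53.4 and 41.5 and FCER1G 51.4, 42.0 and 29.7, lower at the later days, and TYROBP was likewise lower at each later day. CSF1R, ITGAM and ITGB2 were under the floor on these 3 arrays. LAPTM5 had signals of 21.1, 17.1 and 29.2 at days 3, 21 and 42 without TGF-beta3. It was thus lowest at day 21 and highest at day 42, as ISG15 and MX1 were, but stayed above the floor. PTPRC was highest at day 21, at 63.6. AIF1, CD53, CD68, CD14, FCER1G and TYROBP did not have the day 21 low of ISG15 and MX1. Of 7 T and NK cell markers, CD247 alone was above the floor on the arrays without TGF-beta3. The summed signal of 5 adipocyte markers was 461 with TGF-beta3 at day 21, 921 with it at day 42 and 719 after loading, against 5057, 12729 and 15415 at days 3, 21 and 42 without it. The part of these cells in the levels of the 4 genes was not tested, and in these bulk samples fewer cells of a type and less RNA per cell cannot be told apart.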

How the data were processed

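Linear signal intensities were deposited by the authors for each probe set. MAS5 is the tool named, per the submitters' processing notes, and RNA was total RNA amplified by ribo-SPIA and labelled with biotin per the labels' protocols. The 2% trimmed mean was 150 on every array. After 112 control probe sets were left out, 24016 remained, of which 13292 had 1 gene symbol, 86 several and 10638 none here. Entrez identifiers matched 13263 of these in RefSeq. The brightest probe set stood for a gene in the lists.

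The authors' scaling was kept, values under the floor of 15.1 were set to it, and log2 differences of at least 1 were counted where at least 1 of the 2 arrays was above it. With 1 array a side no p was computed. The limma 3.58.1 test (R 4.3.3, trend, day term, Benjamini-Hochberg over the 14839 probe sets with 2 or more of the 4 arrays above the floor) was checked on simulated data. Other steps ran in Python 3.11.15 (pandas 2.3.3, numpy 2.4.6) and figures in matplotlib 3.10.9.

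The 4 genes, lists and tests were chosen with earlier results of these data known. Pathway genes named were, per list, the 2 highest and 2 lowest at day 42 over day 21 without TGF-beta3 and those past limma. The ligands, the chemokines, IDO1, HERC6 and the genes marked as named after their values were seen fall outside that rule. Placeholder symbols were counted and not named, except IFITM3. Alternatives were quantile normalization, median centring, other floors and fold thresholds, a gene's median probe set, other limma settings and each array left out. Scaling to the spikes was added after the data were seen.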

Additional observations from a re-analysis of the deposited data

Results flagged for a closer look

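IRF2, a factor that binds interferon-response promoters, differed between the days in its response to TGF-beta3. It had a signal of 20.4 with TGF-beta3 and 50.2 without it at day 21, a log2 difference of -1.30, and 217 with TGF-beta3 and 25.6 without it at day 42, a log2 difference of 3.08. Each day has 1 array a side, so the difference between the days was not tested. A second IRF2 probe set had signals of 12.1 with TGF-beta3 and 56.4 without it at day 21, and of 210 and 19.7 at day 42. In the day 42 pair the spikes were brighter by log2 1.39 with TGF-beta3.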

How the results depend on the processing

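Samples could not be paired by replicate, since each condition had 1 array and the labels carry no such numbers, but limma matched arrays by day through the day term. ISG15, MX1 and IFI6 kept their direction and stayed past 2-fold at day 42, against day 21 and with TGF-beta3 against without it, under both other floors, quantile normalization, median centring and spike scaling. IFI6 at day 21 against day 3 fell short of 2-fold with the higher floor and with spike scaling. MX2 passed 2-fold in both day 42 comparisons, at least 1.72-fold in the main setting, under the lower floor and all 3 other scalings. The cause of the changes below was not tested, beyond what a floor, threshold or left-out array does by construction.

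With the floor at the 25th percentile, 1 of the 4 genes was higher with TGF-beta3 at day 21, and 2 were lower after loading against either array with TGF-beta3. With it at the 60th percentile, 1 was lower at day 21 than at day 3 and 0 after loading in either comparison. Against day 3, 4 were higher at day 42 under median centring, spike scaling or a threshold of 1.5-fold, and 0 at 3-fold, where 0 were lower in the loaded construct against day 21.

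Counts of pathway genes moved as follows, with TGF-beta3 against without it first. Under the other scalings the counts over all probe sets moved in the same directions, with the splits given above. At day 42 with TGF-beta3, 7945 of all probe sets were lower and 1009 higher with spike scaling. For the other floors and fold thresholds no share over all genes was computed. The fold counts below are therefore no result about the pathway by themselves. At day 21, 2 higher and 12 lower became 4 higher with the lower floor, 1 and 5 with the higher floor, 6 and 25 at 1.5-fold, 0 and 7 at 3-fold, and 21 lower with spike scaling. At day 42, 11 higher and 21 lower became 5 and 12 with the higher floor, 4 and 32 under median centring, 2 and 45 with spike scaling, 4 higher at 3-fold and 7 higher under quantile normalization or with the median probe set. For loading, 8 higher and 8 lower became 13 higher with the lower floor, 1 and 5 with the higher floor, 17 higher at 1.5-fold, 4 and 2 at 3-fold, 5 and 5 with the median probe set and 13 and 4 with spike scaling. At day 21 over day 3 without TGF-beta3, 1 higher and 12 lower became 2 and 19 with the lower floor, 6 lower with the higher floor, 2 and 26 at 1.5-fold, 0 and 6 at 3-fold, 0 higher with the median probe set and 3 higher with spike scaling. At day 42 over day 21 without it, 10 higher and 3 lower became 17 higher with the lower floor, 4 and 1 with the higher floor, 18 and 1 under median centring, 19 and 7 at 1.5-fold, 5 and 0 at 3-fold, 1 lower under quantile normalization and 6 lower with spike scaling. In limma, 0 rose and 5 fell became 8 fell under median centring (6.74% of all genes fell), 3 without the variance trend (4.29%) and 1 without the day term (2.68%). With the loaded array 2 rose and 10 fell (9.35% and 9.3% of all genes). The fits with any 1 array dropped together with the day term also moved, and their medians are given above. Over all probe sets the median log2 difference at day 42 with TGF-beta3 was 0.21 and became -0.29 under median centring. At day 42 over day 21 without it, the median was -0.10 and became 0.25.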
